A study of Mus musculus with 6 samples.

Results

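Cluster 7 of the tumor cells held 3275 of the 29638 cells that the deposited annotation named tumor cells in liver tumors of 6 mice, and of 58794 annotated cells of all types. A cell was a member where the authors' table gave it both the name tumor cells and the cluster number 7, and no expression value was used here to choose it. The members came from all 6 libraries, with 869, 573 and 538 cells in the 3 control mice and 485, 324 and 486 cells in the 3 stress mice. The study asked how chronic stress changes liver cancer. Wild-type male C57BL/6J mice were obtained at 8 weeks of age. They later received H22 cells, a mouse hepatocellular carcinoma line first grown as ascites, by injection into the left liver lobe. Before the injection, the stress group was exposed to chronic unpredictable mild stress, a schedule of changing mild stressors. The control group carried the same tumor cells without stressors. Each mouse gave 1 droplet (10x Genomics) single-cell library of dissociated tumor tissue. Both groups received this same line, and whether the clusters differ in clone was not tested.

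Of the 5 genes given as marks of cluster 7, Gas5, Zfas1 and Snhg8 are hosts of small nucleolar RNAs. Small nucleolar RNAs (snoRNAs) guide the modification and cutting of ribosomal RNA in the nucleolus, and in mammals most of them are cut out of introns of a longer host transcript. Some hosts code for proteins, often ribosomal proteins or translation factors, while others, such as Gas5, Zfas1 and the Snhg genes, are spliced long noncoding RNAs (lncRNAs) whose exons have no known protein product. Many hosts of both kinds start with an unbroken run of pyrimidines, the 5′ terminal oligopyrimidine tract that also starts the mRNAs of ribosomal proteins and ties their translation to growth signalling through mTOR. Spliced noncoding hosts can be bound by ribosomes and are then removed by nonsense-mediated decay, the pathway that degrades transcripts with early stop codons.

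The start sites of the hosts are shown because noncoding hosts and ribosomal protein genes often share this tract. The windows run from 25 bases before to 25 bases from the annotated start on, 5′ to 3′ on the transcribed strand, from RefSeq on GRCm38.p6, and the longest unbroken run of C or T near the start is in capitals.
Gas5, chr1:161035141-161035190, plus strand: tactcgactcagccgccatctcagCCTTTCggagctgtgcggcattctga
2410006H16Rik, chr11:62602852-62602901, plus strand: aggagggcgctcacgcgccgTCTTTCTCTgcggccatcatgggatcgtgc
Snhg8, chr3:123508312-123508361, minus strand: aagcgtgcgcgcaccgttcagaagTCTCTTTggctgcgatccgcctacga
1110038B12Rik, chr17:34952444-34952493, minus strand: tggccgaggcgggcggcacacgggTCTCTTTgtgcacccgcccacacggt
Snhg12, chr4:132308653-132308702, plus strand: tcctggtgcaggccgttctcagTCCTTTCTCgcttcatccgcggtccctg
Rack1, chr11:48800335-48800384, plus strand: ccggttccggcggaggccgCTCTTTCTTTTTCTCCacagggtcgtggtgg
Zfas1, chr2:167062909-167062958, plus strand: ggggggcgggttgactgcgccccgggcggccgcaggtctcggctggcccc
A run of at least 6 unbroken C or T bases touching the stretch from 10 bases before to 15 bases after the start was read on the transcribed strand alone. It was found in 12 of the 18 listed host lncRNAs with a start site in the table (66.7%), in 43 of 67 matched ribosomal protein genes (64.2%) and in 36.8% of all 27025 genes with a start site. Zfas1 is printed as a host whose window holds no such run, and Gas5 has a further annotated start without one. The annotation places 10 small RNA genes inside Gas5, which lies on chromosome 1 from 161034422 to 161038539, among them Snord47, Snord78 and Snord80. It places Snord49a, Snord49b and Snord65 inside 2410006H16Rik on chromosome 11 and Snora24 inside Snhg8 on chromosome 3.

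The libraries were deep in these cells. The median cluster 7 cell held between 20566 and 34779 UMIs (unique molecular identifiers, counted RNA molecules) by mouse, and no member fell under 2000 UMIs. Summed over the members of a mouse, the totals ran from 9628336 to 18329385 UMIs. The median share of mitochondrial UMIs was 2.92% to 4.45%, and 32 members were called doublets by Scrublet. Pairs of libraries shared 14 to 43 cell barcodes, and none of these was a cluster 7 cell in both libraries of its pair. Markers of other cell types were low in the summed members: the endothelial list of 7 genes came to 21.7 to 30.5 counts per 1000000 UMIs (CPM) by mouse, the monocyte list to 14.9 to 33.0 CPM, the neutrophil list to 5.22 to 30.6 CPM and the red cell list to 0.396 to 1.64 CPM, against 21.2 to 42.9, 12.8 to 28.9, 4.46 to 52.5 and 0.373 to 37.3 CPM in the other tumor cells. The lymphocyte, hepatocyte and stellate cell lists came to 0.927 to 13.2, 0.273 to 7.52 and 0.422 to 3.45 CPM, against 1.58 to 9.95, 0.283 to 1.29 and 0.483 to 4.64 CPM, and by mouse cluster 7 held rank 1 to 9 of the 10 tumor clusters for the hepatocyte list. Of the 22 epithelial and oncofetal genes listed, 8 reached a mean of 20 CPM in cluster 7 or the other tumor cells, and the rest did not. Among those 8, Krt18, Cldn6, Epcam, Krt19 and Afp were present in the summed members of all 6 mice. Their means were 455, 132, 121, 105 and 63.4 CPM. Control mouse 2 stood farthest from its group, with a median absolute log2 difference of 0.201 from the other control mice over 6291 genes, against 0.118 to 0.161 for the remaining mice. The control libraries were processed with Cell Ranger 9.0.0 and the stress libraries with 7.1.0 per the files, so software version and group cannot be told apart.

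All 5 genes given as marks of the cluster were higher in cluster 7 than in the other tumor cells of the same mouse in each of the 6 mice. These contrasts describe how the cells were clustered and carry no test, since the clusters were drawn from the same genes. Of 6291 genes at a mean of at least 20 CPM in either population, 488 (7.76%) were higher in all 6 mice and 3683 (58.5%) were lower in all 6. The median gene stood at -0.19 on the log2 scale, so a ratio is best read against that value. All ratios below are log2 of CPM plus 1 in cluster 7 over the other tumor cells, given as the median over 6 mice.

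Gas5, a noncoding host whose exons carry no known protein, led the cluster. It stood at 1900.3, 1587 and 2049 CPM in the 3 control mice and 1392, 1246 and 1337 CPM in the 3 stress mice. In the other tumor cells it stood at 838, 770.0 and 799 CPM in the control mice and 808, 548 and 676 CPM in the stress mice, so each cluster 7 value lay above every value outside the cluster. The ratio was 1.11 (range 0.78 to 1.36), or 2.16-fold. The noncoding host 2410006H16Rik stood at 1464, 1326 and 1326 CPM in the 3 control mice and 846, 777 and 771 CPM in the 3 stress mice. Its ratio was 0.98 (range 0.61 to 1.13). Zfas1, the noncoding host next to the start of Znfx1, stood at 373, 357 and 333 CPM in the 3 control mice and 296, 254 and 383 CPM in the 3 stress mice. Its ratio was 0.71 (range 0.46 to 0.77), and all 6 values lay above the highest value in the other tumor cells, 233 CPM. Snhg8 stood at 327, 301 and 289.6 CPM in the 3 control mice and 224, 184 and 275 CPM in the 3 stress mice. Its ratio was 0.65 (range 0.52 to 0.77), and the lowest mouse, stress mouse 2, lay below the highest values outside the cluster. Epb41l4aos, 1110038B12Rik and Snhg12 completed the noncoding hosts among the 20 genes with the highest ratio, at 0.79 (range 0.56 to 0.85), 0.65 (range 0.50 to 0.77) and 0.62 (range 0.36 to 0.82).

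**Figure D1:**
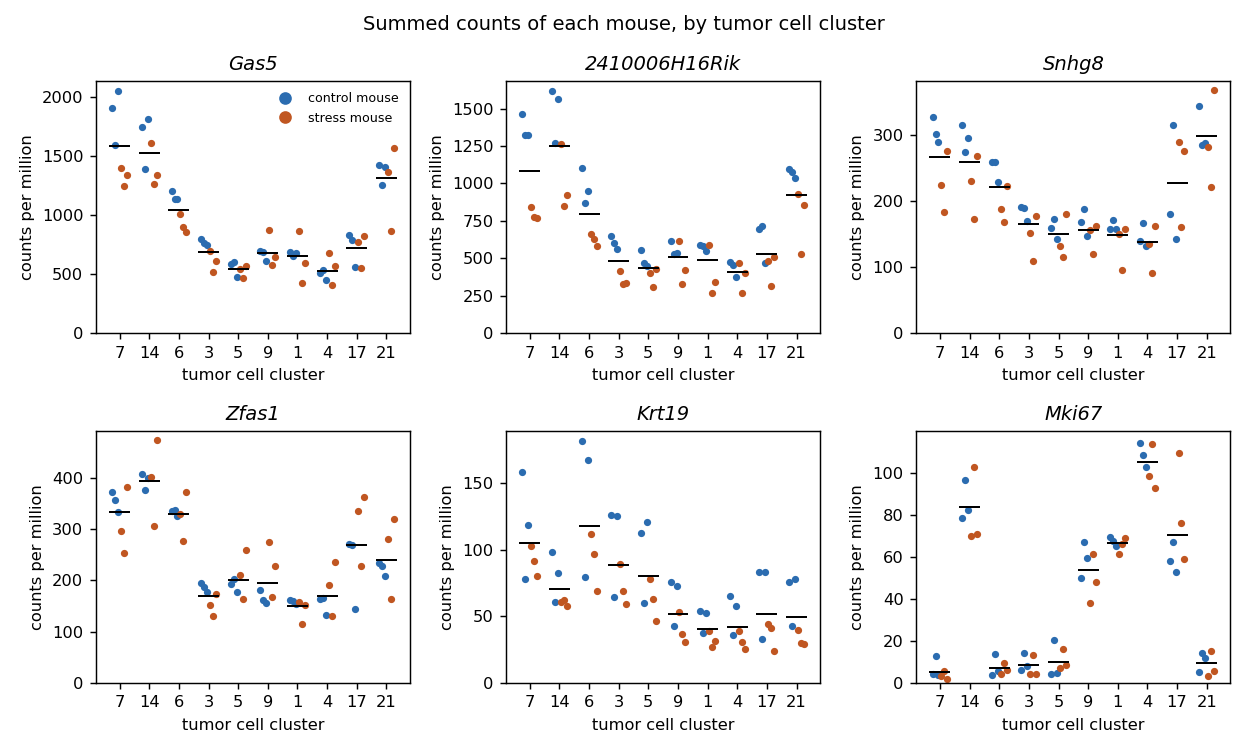
Summed CPM in each tumor cell cluster (horizontal axis, cluster number) for 4 noncoding snoRNA hosts, Krt19 and Mki67; points are mice and black lines the mean of 6 mice. Gas5 was highest in clusters 7 and 14, at means of 1585 and 1524 CPM, while Mki67 was low in cluster 7 and high in cluster 14.

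Of the 20 highest genes, 19 could be placed on the annotation and 9 of these (47.4%) had an annotated snoRNA inside, 7 of them noncoding, against 3.20% of 6258 annotated genes at the same CPM minimum. Among the 100 highest genes, 30 of 92 annotated (32.6%) were hosts and 46 coded for ribosomal proteins. Among the 100 lowest, 4 were hosts and none coded for a ribosomal protein. The coding hosts among the 20 were Rack1, a protein of the small ribosomal subunit, at 0.62 (range 0.51 to 0.66), and Rpl17, at 0.58 (range 0.46 to 0.68). High hosts were not a property of all hosts. Of the 200 annotated hosts at the minimum, 50 were higher in all 6 mice and 103 were lower, where 7.76% of all genes were higher and 58.5% lower. The share that was higher was thus larger than among all genes, while the median of -0.16 was close to that of all genes. Of the 16 listed host lncRNAs at the minimum, 7 were higher in all 6 mice (Gas5, Epb41l4aos, Zfas1, Snhg8, Snhg12, Snhg6 and Snhg20), 1 was lower in all 6 and the median was 0.25. Snhg6 and Snhg20 stood at 0.56 (range 0.29 to 0.66) and 0.42 (range 0.17 to 0.52). Snhg1, which carries 8 annotated snoRNAs, stood at 0.01 (range -0.13 to 0.39). Snhg5, the host that was lower, stood at -0.49 (range -0.77 to -0.31).

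Ribosomal protein genes were higher almost as a block: 83 of 85 at the minimum were higher in all 6 mice, with a median ratio of 0.42. The exceptions were Rps27l, a p53-induced relative of Rps27, at -0.19 (range -0.23 to -0.05), and Rpl7l1, at -0.06 (range -0.10 to 0.07). Together the ribosomal protein genes took 307259 ± 16132 CPM in cluster 7 (SD, n = 6 mice) and 229802 ± 14448 CPM in the other tumor cells. A larger share for these genes leaves a smaller share for all others, which is part of how CPM is built. Translation factors, whose mRNAs often begin with the same tract, were higher in all 6 mice for 12 of 16 genes, with a median of 0.33. Elongation factor genes Eef1b2 and Eef1a1 stood at 0.53 (range 0.40 to 0.66) and 0.50 (range 0.37 to 0.60), and the initiation factor gene Eif3f at 0.50 (range 0.36 to 0.61). The helicase gene Eif4a1 and the poly(A)-binding protein gene Pabpc1 were lower in all 6, at -0.10 (range -0.18 to -0.07) and -0.13 (range -0.20 to -0.03).

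Gene by gene, the machinery that makes ribosomes and snoRNA particles lay near the level of all genes. Summed, it came to 6712 ± 414 CPM in cluster 7 and 6364 ± 416 CPM in the other tumor cells (SD, n = 6 mice). The sum in cluster 7 was the lower in stress mouse 2 alone (6806 against 6841 CPM), and it held rank 3 to 5 of 10 tumor clusters by mouse. Of 22 nucleolar and snoRNA-particle genes, 2 were higher in all 6 mice and 13 lower, close to the shares of all genes, with a median of -0.13. Npm1, the nucleolar chaperone, was higher at 0.29 (range 0.23 to 0.39). Nop58, a core protein of box C/D particles, was lower at -0.38 (range -0.48 to -0.29), and Dkc1, the pseudouridine synthase of box H/ACA particles, at -0.36 (range -0.47 to -0.09). Ncl, the nucleolar protein nucleolin, stood at -0.24 (range -0.36 to -0.12). All 9 nonsense-mediated decay factors at the minimum were lower in all 6 mice, with a median of -0.34 and values of -0.41 to -0.15. The median of all genes lies between the medians of these lists.

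Cluster 7 was low in cell cycle genes. All 20 mitotic genes and all 17 S-phase genes at the minimum were lower in all 6 mice, with medians of -2.03 and -1.40. Mki67, the proliferation antigen, was the lowest gene of all. It stood at 4.04, 12.6 and 3.90 CPM in the 3 control mice and 3.10, 5.50 and 1.84 CPM in the 3 stress mice, against 47.8, 59.6 and 49.3 CPM in the control mice and 37.7, 57.5 and 40.3 CPM in the stress mice in the other tumor cells. The ratio was -3.26 (range -3.86 to -2.16), and control mouse 2 held the most in cluster 7. Birc5, an apoptosis inhibitor that acts in mitosis, Rrm2, a subunit of ribonucleotide reductase, and Ccna2, cyclin A, stood at -2.69 (range -3.16 to -1.40), -2.83 (range -3.02 to -1.93) and -2.98 (range -3.58 to -1.50). The remaining genes among the 10 lowest (H1f5, Esco2, Pbk, Lrr1, Pclaf and Ttk) stood between -3.03 and -2.73. Cdkn1a, the cell cycle inhibitor p21, was also lower in all 6 mice, at -0.58 (range -1.01 to -0.43).

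Immediate-early genes and mitochondrial mRNAs were lower than in the other tumor cells as well, read against the 58.5% of all genes that were lower in all 6 mice. Immediate-early genes, switched on within minutes of a stimulus, were lower in all 6 mice for 11 of 15 and higher for none, with a median of -0.42. Among the 10 tumor clusters the summed list in cluster 7 held rank 6 to 8 by mouse. The transcription factor genes Egr1, Fosb and Fos stood at -1.43 (range -2.0 to -0.90), -1.20 (range -1.72 to -0.93) and -1.11 (range -1.91 to -0.55). Heat shock genes lay near the level of all genes, with 8 of 11 lower, 1 higher and a median of -0.24, although the inducible chaperone gene Hspa1a stood at -1.59 (range -1.99 to -1.04). Of 13 mRNAs of the mitochondrial genome, 12 were lower in all 6 mice, with a median of -0.66, and the summed list held rank 7 to 10 by mouse, at 36638 ± 6177 CPM (SD, n = 6 mice) against 38155 ± 7499 in cluster 14 and 41101 ± 8173 in cluster 6. Of 4 nuclear lncRNAs at the minimum, 0 were higher in all 6 mice and 2 were lower, a share close to that of all genes, Neat1 at -0.66 (range -0.70 to -0.22) and Kcnq1ot1 at -0.44 (range -0.72 to -0.10).

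Hilpda and Plin2 were also among the 20 highest genes. Hilpda, an inhibitor of fat breakdown, stood at 695, 716 and 789 CPM in the 3 control mice and 556, 609.6 and 458 CPM in the 3 stress mice. It was higher in cluster 7 than in each of the 9 other tumor clusters in every mouse, with a ratio to all other tumor cells of 0.77 (range 0.50 to 0.82). Plin2, a coat protein of lipid droplets, stood at 0.79 (range 0.57 to 0.90). Hilpda is also a target of the hypoxia response. Of 15 glycolysis and hypoxia genes 3 were higher in all 6 mice and 1 lower, where 7.76% of all genes were higher and 58.5% lower, and the median of 0.09 lay above the -0.19 of all genes. The summed list held rank 1 to 4 of the 10 tumor clusters by mouse. Those 3 were Pgk1, Bnip3 and Gapdh, at 0.42 (range 0.29 to 0.56), 0.40 (range 0.30 to 0.57) and 0.23 (range 0.14 to 0.28). Of 16 amino acid and integrated stress response genes, 4 were higher and 4 lower in all 6 mice, against the same 7.76% and 58.5% of all genes. Atf5 and Nupr1, both transcription regulators of that response, stood at 0.69 (range 0.50 to 0.91) and 0.56 (range 0.23 to 0.73), while Shmt2, an enzyme of one-carbon metabolism, stood at -0.61 (range -0.79 to -0.36) and Atf4 at -0.13 (range -0.36 to 0.13).

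The other given marks are a keratin and an adhesion protein. Krt19, a keratin of bile duct and progenitor-like cells, stood at 158, 77.8 and 119 CPM in the 3 control mice and 103, 91.4 and 80.4 CPM in the 3 stress mice. Its ratio was 0.66 (range 0.37 to 0.91), and the mice overlapped with values from the other tumor cells, which reached 97.2 CPM in control mouse 1. Of the 22 epithelial and oncofetal genes listed, 8 reached the minimum. Of these, 3 were higher and 3 lower in all 6 mice, where 7.76% of all genes were higher and 58.5% lower, and the median was 0.05. The other 2 that were higher, Cd24a, a surface glycoprotein, and Sox4, a transcription factor, stood at 0.57 (range 0.43 to 0.65) and 0.32 (range 0.22 to 0.46). Those lower were Spp1, the secreted protein osteopontin, at -1.18 (range -1.59 to -0.46), the adhesion protein Epcam at -0.32 (range -0.39 to -0.06) and alpha-fetoprotein, Afp, at -0.36 (range -0.39 to -0.16). Lsamp, a neuronal cell adhesion protein, stood at 16.5, 5.41 and 21.2 CPM in the 3 control mice and 39.1, 31.5 and 29.6 CPM in the 3 stress mice, a low level that varied more between mice than any other mark, with control mouse 2 lowest. Its ratio was 0.90 (range 0.72 to 1.18). Of 15 neural adhesion genes listed, Lsamp and Cadm1 reached the minimum and the other 13 were not read, and Cadm1 stood at -0.86 (range -1.15 to -0.58). The remaining genes among the 20 highest were Nacad, Ftl1 (the ferritin light chain), the ribosomal protein genes Rps7 and Rpl22l1, and the noncoding Gm47080 and ENSMUSG00000121883, at medians between 0.59 and 0.83.

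Against single tumor clusters, cluster 7 was most like clusters 3 and 6. Pearson's r of log2 CPM over 6291 genes, which share library and depth, had a median over mice of 0.987 with cluster 3, 0.971 with cluster 6, 0.955 with cluster 5 and 0.947 with cluster 14. Of the 20 highest genes, 14 exceeded clusters 3, 5 and 6 in all 6 mice. Low cell cycle genes were shared with these clusters. The mitotic list summed to 651 ± 247 CPM in cluster 7 (SD, n = 6 mice), 617 ± 175 in cluster 6, 652 ± 236 in cluster 5 and 809.9 ± 274 in cluster 3, and cluster 7 lay below cluster 3 in each of the 6 mice. Mki67, Lrr1, Pclaf and Rrm2 were lower in cluster 7 than in cluster 3 in all 6 mice, and for 0 of the 10 lowest genes was cluster 7 below clusters 3, 5 and 6 in every mouse. Krt19 was higher in cluster 6 than in cluster 7 in 5 of 6 mice, at 118 ± 46.5 CPM against 105 ± 30.3 CPM.

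The hosts were shared with a cycling cluster. Cluster 14, whose mitotic list summed to 4265 ± 512 CPM, held Gas5 at 1524 ± 228 CPM against 1585 ± 325 CPM in cluster 7, which was the higher in 4 of 6 mice. 2410006H16Rik stood at 1248 ± 317 CPM in cluster 14 and 1085 ± 319.8 CPM in cluster 7, and cluster 14 was the higher in 5 of 6 mice. Zfas1 and Snhg12 were higher in cluster 14 in all 6 mice, at 394 ± 54.7 and 197 ± 28.7 CPM. Hilpda, Rack1, Plin2 and Krt19 were higher in cluster 7 than in cluster 14 in all 6. The listed host lncRNAs together came to 3874 ± 285 CPM in cluster 14, 3395 ± 451 CPM in cluster 7, 2756 ± 681 CPM in cluster 17, 2719.6 ± 242 CPM in cluster 6 and 2608 ± 398 CPM in cluster 21, with the remaining clusters between 1714 and 1991 CPM. Gas5 alone made up means of 1524 and 1585 CPM of these sums in clusters 14 and 7. By the sum, cluster 7 held rank 1 to 3 of 10 by mouse, and the mice of clusters 14 and 7 overlapped. Clusters 6, 17 and 21 lay within 1 SD of one another and are not ordered. Cluster 17 was shallow, at 1369 to 2877 median UMIs by mouse, with 594 of its 1126 cells under 2000 UMIs and 13.2% called doublets. Cluster 21, which held 667 cells with 8003 to 12444 median UMIs, had the larger share of ribosomal protein genes in every mouse (425559.5 ± 49078 CPM), with cluster 7 next in every mouse.

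**Figure D2:**
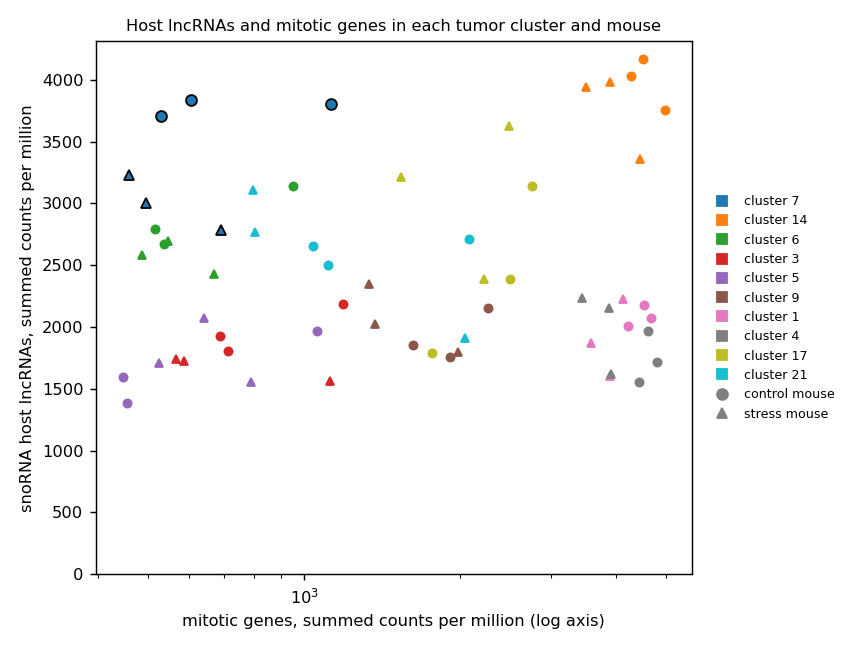
Summed CPM of the listed snoRNA host lncRNAs (vertical axis) against summed CPM of mitotic genes (horizontal axis, log scale) for each tumor cluster and mouse; circles are control mice, triangles stress mice and colours clusters. Cluster 7 (outlined) lies high at left with 2782 to 3833 CPM of hosts, and cluster 14 lies high at right.

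The summed signal of the listed host lncRNAs, of which Gas5 was the largest member, was spread over most cells of the cluster and not carried by a few. After each cell was thinned at random to 2000 UMIs, which left out 605 shallower cells of the other tumor clusters and no member of cluster 7, the median member held 5 to 7 host lncRNA UMIs by mouse and the median other tumor cell 3 to 4. Between 65.7% and 84.9% of members exceeded the median of the other tumor cells of their mouse, as did 38.3% to 48.6% of the other cells themselves. The distributions overlapped: 16.5% to 31.0% of members exceeded the 90th percentile of the other cells. At this depth Gas5 gave a UMI in 81.8% to 93.9% of members by mouse, 60.8% to 70.4% of other tumor cells, 49.8% to 68.1% of endothelial cells and 34.9% to 53.8% of monocytes. No type here is known to lack Gas5, so the part of free RNA in these shares was not tested. Without thinning the shares were 99.8% to 100% of members and 97.0% to 98.6% of other tumor cells.

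Krt19 and Lsamp were detected in fewer cells. Krt19 gave a UMI in 13.6% to 27.0% of thinned members, 7.82% to 17.2% of thinned other tumor cells and 0.358% to 2.70% of thinned endothelial cells, which should lack it. Lsamp gave one in 1.05% to 8.04%, 0.418% to 3.60% and 0.0671% to 0.664% of the same groups. Unthinned, Lsamp was found in 8.90% to 25.8% of members, at the median depths given above, and in 0.759% to 2.37% of endothelial cells at 3608 to 5832 median UMIs. Mki67 gave a UMI in 0.412% to 1.92% of thinned members and 6.14% to 10.1% of thinned other tumor cells. The median member gave 27.8% to 32.1% of its UMIs to ribosomal protein genes by mouse, and 98.0% to 99.6% of members exceeded the median of the other tumor cells of their mouse.

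**Figure D3:**
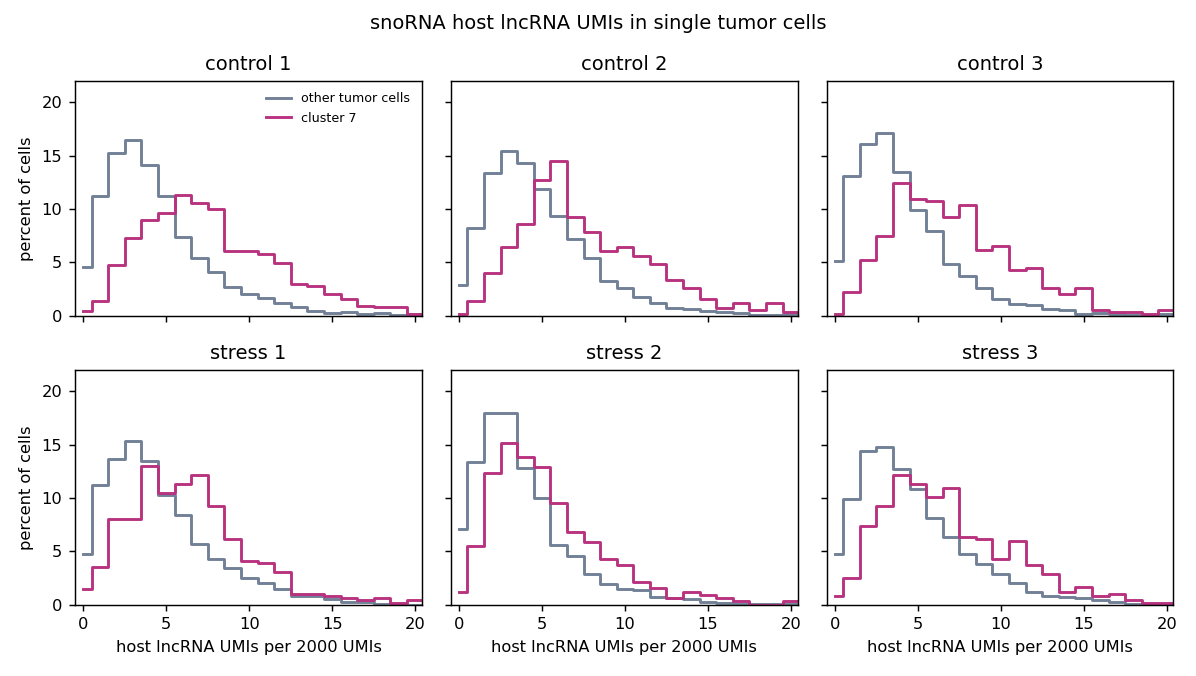
Percent of cells (vertical axis) by number of host lncRNA UMIs per cell thinned to 2000 UMIs (horizontal axis), 1 panel per mouse, for cluster 7 and all other tumor cells. In every mouse the cluster 7 curve is shifted to the right, from medians of 3 to 4 UMIs to medians of 5 to 7 UMIs, and the curves overlap.

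The size of the cluster did not differ detectably with stress. It made up 11.8%, 10.0% and 10.8% of the tumor cells in the 3 control mice (10.9% ± 0.893, SD, n = 3) and 11.2%, 8.38% and 14.5% in the 3 stress mice (11.4% ± 3.07, n = 3). The stress mice spread on both sides of the control mice. The difference was 0.491 percentage points (two-sided exact permutation test, p = 0.8, where 3 against 3 mice cannot give less than 0.1).

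To ask what stress changed inside the cluster, UMIs were summed over the members of each mouse and tested with edgeR. Of 13144 genes tested, 458 (3.48%) passed an adjusted p of 0.05, 234 (1.78%) higher and 224 (1.7%) lower in stress mice, and the median log2 fold change of all genes was -0.00. In the other tumor cells, with more UMIs per mouse, 3982 of 18701 genes (21.3%) passed. The count in cluster 7 turned on single mice: it was 75 without control mouse 1, 91 without control mouse 3, 145, 67 and 79 without stress mice 1, 2 and 3, and 1658 without control mouse 2, the mouse that stood apart. With the replicate number as a block it was 801. Of the 44 named genes that passed, 11 also passed with each mouse left out in turn: Dapk1, Ryr3, Fos, Gm46563, Plxdc2, Tmem63c, Ctla4, mt-Nd4l, mt-Atp8, Rpl37rt and Rps27rt.

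None of the 5 marks passed the threshold in cluster 7, in a comparison where 3.48% of genes did. Gas5, with the values given above, lay lower in all 3 stress mice than in any control mouse (log2 fold change -0.56, SE 0.14, edgeR adjusted p = 0.0642). It passed by DESeq2 (adjusted p = 0.00489), without a filter on low counts (0.00621) and with the replicate block (0.0264), and over all alternatives its adjusted p ranged up to 0.207. Without control mouse 2 it was 0.0131. Snhg8 lay lower in all 3 stress mice too (log2 fold change -0.51, SE 0.15, edgeR adjusted p = 0.0937). It passed by DESeq2, without a filter on low counts and with the replicate block (adjusted p = 0.0269, 0.0135 and 0.0430) and reached 0.432 in thinned cells. Zfas1 overlapped between the groups (log2 fold change -0.27, SE 0.15, edgeR adjusted p = 0.324). Krt19 overlapped (log2 fold change -0.46, SE 0.24, edgeR adjusted p = 0.294). Lsamp was the mark with the higher values in stress, without overlap between the groups, as for 18.1% of genes tested (log2 fold change 1.11, SE 0.39, edgeR adjusted p = 0.136), and outside the cluster it had a log2 fold change 1.31, SE 0.42, adjusted p = 0.0601. Leaving out control mouse 2 brought Krt19 and Lsamp past the threshold, at adjusted p = 0.0195 and 0.0303. Lsamp also passed without a filter (0.00222) and with the replicate block (0.0339), and not by DESeq2 (0.271).

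Of the 36 noncoding genes tested with an annotated snoRNA inside, 2 passed (5.56%, where 3.48% of all genes did), 1 in each direction, both outside the fixed host list. 2410006H16Rik, whose 6 values are given above, fell in cluster 7 (log2 fold change -0.86, SE 0.12, edgeR adjusted p = 0.00997), and the lowest control mouse lay well above the highest stress mouse. Leaving out control mouse 1 or stress mouse 2 ended the call, at adjusted p = 0.050 and 0.0564, and with each other mouse left out it held. In the other tumor cells it fell too (log2 fold change -0.74, SE 0.20, adjusted p = 0.0348), and the 2 changes did not pass the test of their difference (adjusted p = 0.671). Gm41654, which has 1 annotated snoRNA, rose on few UMIs, 3, 2 and 7 in the control mice and 22, 10 and 16 in the stress mice (log2 fold change 2.16, SE 0.49, edgeR adjusted p = 0.0484), and passed without control mouse 2 and with no other mouse left out (up to 0.190). Of the 17 listed host lncRNAs tested, none passed in either direction by edgeR as reported, 14 had a log2 fold change below 0 and the median was -0.22. In 3 of them, Gas5, Snhg8 and Snhg12, the stress mice lay below all control mice, or 17.6% of 17, where 8.84% of all genes tested did so. Snhg12 stood at 171, 227 and 147 CPM in the 3 control mice and 127, 125 and 143 CPM in the 3 stress mice (log2 fold change -0.54, SE 0.15, edgeR adjusted p = 0.0761). It too passed by DESeq2 and without a filter (adjusted p = 0.0172 and 0.00728), and reached 0.275 in thinned cells. Summed, the listed hosts came to 3833, 3808 and 3708 CPM in the control mice and 3005, 2782 and 3232 CPM in the stress mice. Most of this fall lay in Gas5, whose values are given above and which did not pass by edgeR as reported. The sums of the listed hosts in the other tumor cells were 2228 ± 141 CPM in the control mice and 2044 ± 221 CPM in the stress mice (SD, n = 3 each).

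**Figure D4:**
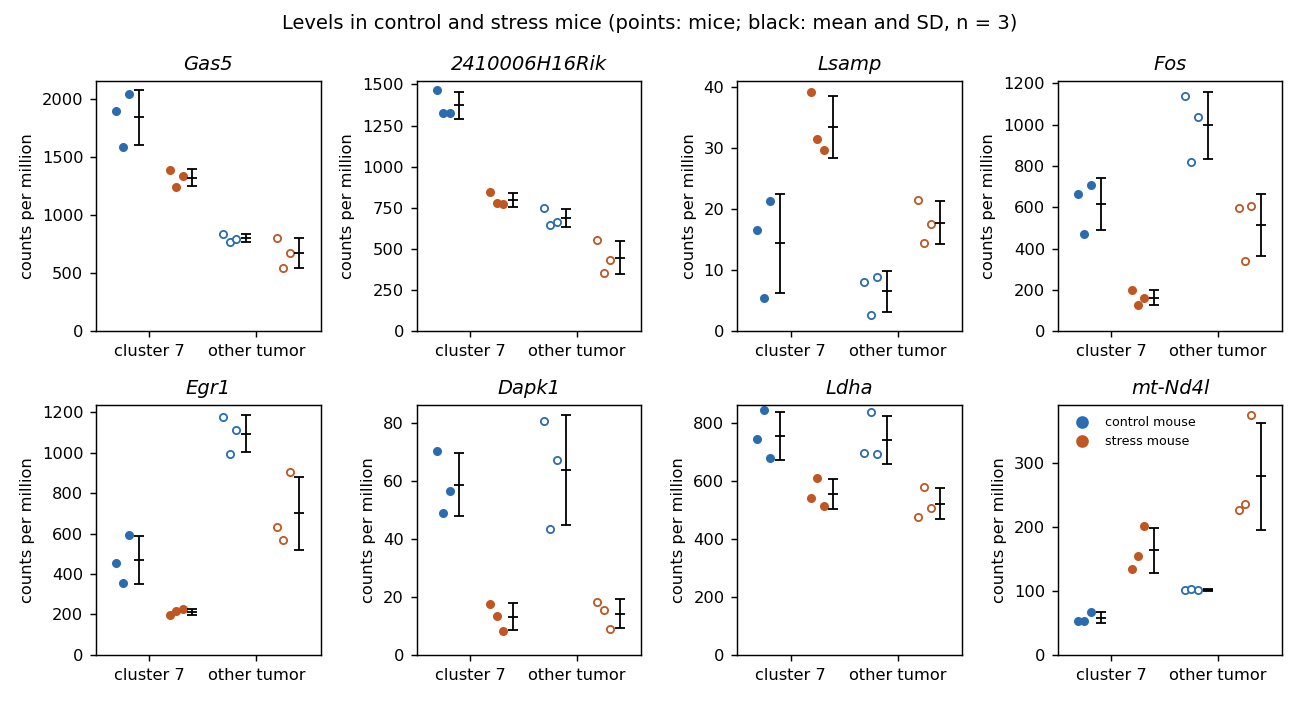
Summed CPM of 8 genes (vertical axes) in cluster 7 (filled points) and the other tumor cells (open points); blue points are the 3 control mice, orange points the 3 stress mice, and black bars the mean and SD. Gas5 stays higher in cluster 7 than outside it in both groups, while Fos falls to 128 to 198 CPM in the stress mice.

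Few ribosomal protein genes passed the test with stress. Of 86 tested in cluster 7, 2 rose and 3 fell (5.81% of 86, where 3.48% of all genes passed), with a median log2 fold change of -0.13. The log2 fold change was below 0 for 61 of the 86. In 20 (23.3%) the stress mice lay below all control mice, where 8.84% of all genes did, and in 15 above, where 18.1% did. Rpl10 stood at 854, 850.0 and 939 CPM in the 3 control mice and 1726, 1649 and 2033 CPM in the 3 stress mice (log2 fold change 0.95, SE 0.13, edgeR adjusted p = 0.00820), with all stress mice above all control mice. Rpl35 rose as well (log2 fold change 0.63, SE 0.15, edgeR adjusted p = 0.0491). The genes that fell, Rpl37rt, Rps27rt and Rpl27rt, are retrotransposed copies of Rpl37, Rps27 and Rpl27, and fell by 1.36, 1.42 and 1.32 on the log2 scale (adjusted p = 0.00408, 0.00487 and 0.0101). Reads of such near-identical copies can be split or lost by the counting, so these values are uncertain. Outside the cluster 3 of 88 rose and 8 fell, where 12.2% and 9.1% of all genes did. The genes called in cluster 7 changed the same way there, each past the threshold. Their log2 fold changes outside were 0.84 and 0.57 for Rpl10 and Rpl35, and -1.35, -1.43 and -1.32 for Rpl37rt, Rps27rt and Rpl27rt. Of 16 translation factors, 2 fell (12.5%, where 1.7% of all genes did): the elongation factor gene Eef2 (log2 fold change -0.59, SE 0.10, edgeR adjusted p = 0.0227) and the initiation factor gene Eif3f (log2 fold change -0.59, SE 0.11, edgeR adjusted p = 0.0299). Of 22 nucleolar and snoRNA-particle genes 1 fell (4.55%, where 1.7% of all genes did), Nop10, a small protein of box H/ACA particles (log2 fold change -0.55, SE 0.12, edgeR adjusted p = 0.0408). But 13 of the 22 lay above 0, with a median of 0.11. In 9 the stress mice lay above all control mice, where 18.1% of all genes did, and in 3 below, where 8.84% did. Summed in cluster 7, the list came to 6346 to 6442 CPM in the control mice and 6806 to 7428 CPM in the stress mice. With a mouse other than control mouse 2 left out, Eef2, Eif3f and Rpl35 did not pass (adjusted p up to 0.113, 0.131 and 0.154). Nop10 reached 0.151 without control mouse 1 and did not pass without control mouse 3 or stress mouse 2 or 3. In thinned cells it had a log2 fold change of -0.38 (adjusted p = 0.236). Rpl27rt did not pass without stress mouse 2 (0.0527) and Rpl10 without control mouse 1 (0.050).

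Some immediate-early genes fell with stress. Of 17 tested in cluster 7, 4 fell (23.5%, where 1.7% of all genes did) and none rose, with a median log2 fold change of -0.59. Fos, a partner in the AP-1 transcription factor, stood at 664, 470.0 and 707 CPM in the 3 control mice and 198, 128 and 161 CPM in the 3 stress mice (log2 fold change -2.0, SE 0.22, edgeR adjusted p = 0.00316), so that every stress mouse lay far below every control mouse. Egr1, a zinc finger transcription factor, stood at 456, 356 and 596 CPM in the 3 control mice and 195, 218 and 227 CPM in the 3 stress mice (log2 fold change -1.23, SE 0.19, edgeR adjusted p = 0.0119), again without overlap. Ier2 and Fosb fell by 0.92 and 0.71 on the log2 scale (adjusted p = 0.0104 and 0.0255). Egr1 did not pass without any 1 of the 3 stress mice (0.0534 to 0.0671), Ier2 without stress mouse 2 (0.0548) and Fosb without any single mouse other than control mouse 2 (up to 0.0921). Outside the cluster 3 of the 17 immediate-early genes fell, where 9.1% of all genes did, with a median of -0.24. The difference of the effects passed for Fos alone. Heat shock genes, another group of fast response, had no member past the threshold among 11 in cluster 7, where 1.78% of all genes rose. But 10 lay above 0, and the median was 0.41. In 5 of the 11 the stress mice lay above all control mice, where 18.1% of all genes did. Outside the cluster 5 of 11 rose, where 12.2% of all genes did, and no difference of the effects passed. The glucocorticoid response list had none among 10 in cluster 7, where 3.48% of all genes passed. Tsc22d3, a glucocorticoid-induced leucine zipper protein, stood at 308, 71.0 and 232 CPM in the 3 control mice and 82.4, 36.0 and 46.3 CPM in the 3 stress mice (log2 fold change -1.96, SE 0.50, edgeR adjusted p = 0.0619).

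Some genes of glycolysis and the hypoxia response fell too: 6 of 16 tested (37.5%, where 1.7% of all genes did so) were lower in cluster 7 of the stress mice and none rose, with a median of -0.45. Ldha, the lactate dehydrogenase subunit, stood at 743, 843 and 678 CPM in the 3 control mice and 541, 611 and 512 CPM in the 3 stress mice (log2 fold change -0.53, SE 0.12, edgeR adjusted p = 0.0469). Pkm, the pyruvate kinase of growing cells, and Slc2a1, the glucose transporter GLUT1, fell by 0.73 and 0.66 on the log2 scale (adjusted p = 0.0198 and 0.0310). The hypoxia-induced genes Bnip3, Ndrg1 and Ankrd37 fell by 0.76, 0.65 and 1.11 (adjusted p = 0.0416, 0.0271 and 0.0401). Of 19 amino acid and integrated stress response genes tested, 1 fell (5.26%, where 1.7% of all genes did) and none rose, where 1.78% did. This was Ddit4, an inhibitor of mTOR that hypoxia also induces, which fell by 1.26 (adjusted p = 0.0314). In 9 of the 16 glycolysis and hypoxia genes the stress mice lay below all control mice, where 8.84% of all genes did so. Without control mouse 1 none of the 7 named genes passed (adjusted p up to 0.158), and none did without stress mouse 3, while all 7 passed without control mouse 2. Outside the cluster 11 of 18 fell, where 9.1% of all genes did, with a median of -0.56, and for none of the 18 did the difference of the 2 effects pass its test.

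A few mitochondrial mRNAs rose. Of 13 tested in cluster 7, 3 rose (23.1%, where 1.78% of all genes did) and none fell, with a median of 0.47. mt-Nd2, a subunit of respiratory complex I, stood at 592, 741 and 923 CPM in the 3 control mice and 1674, 1899 and 1591 CPM in the 3 stress mice (log2 fold change 1.11, SE 0.17, edgeR adjusted p = 0.0130). mt-Nd4l, another subunit of complex I, stood at 53.4, 53.5 and 67.7 CPM in the 3 control mice and 134, 155 and 201 CPM in the 3 stress mice (log2 fold change 1.40, SE 0.16, edgeR adjusted p = 0.00366). mt-Atp8, of the ATP synthase, rose by 1.49 (adjusted p = 0.00245), with no overlap between the groups for any of the 3. Without stress mouse 2 the adjusted p of mt-Nd2 was 0.0671, and it did not pass without control mouse 1 or stress mouse 1 or 3 either. mt-Co3 and mt-Atp6, which make up more of the mitochondrial UMIs, had log2 fold changes of -0.15 and 0.00. Outside the cluster 8 of 13 rose, where 12.2% of all genes did, with a median of 0.54, and no difference of the effects passed. Of 5 nuclear lncRNAs tested, 1 rose, where 1.78% of all genes did: Kcnq1ot1, the imprinted antisense RNA of Kcnq1 (log2 fold change 0.82, SE 0.13, edgeR adjusted p = 0.0155), which passed without control mouse 2 and with no other mouse left out (up to 0.0791). None passed in cluster 7 among 22 mitotic, 20 S-phase, 11 p53 target, 13 MHC class I and interferon, and 13 epithelial genes, where 3.48% of all genes did. The mitotic list had 21 of 22 values below 0 and a median of -0.57, and in the other tumor cells 17 of 22 fell, where 9.1% of all genes did, with a median of -0.64 and no difference of the effects past the threshold. The cycling cluster 14 was a smaller share of the tumor cells in the stress mice, with values given below. Its part in the fall outside cluster 7 was not tested.

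The 10 genes with the largest fall in cluster 7, chosen among called genes whose groups do not overlap, lay between -2.23 and -1.82 on the log2 scale, and none is a host in the annotation. Dapk1, a calcium-dependent death-associated kinase, stood at 70.4, 49.0 and 56.5 CPM in the 3 control mice and 17.7, 13.5 and 8.39 CPM in the 3 stress mice (log2 fold change -2.23, SE 0.27, edgeR adjusted p = 0.00459). Every stress mouse held less than the lowest control mouse. Ryr3, a calcium release channel, stood at 36.6, 33.5 and 26.1 CPM in the 3 control mice and 7.40, 9.66 and 7.44 CPM in the 3 stress mice (log2 fold change -2.07, SE 0.16, edgeR adjusted p = 0.00124). Plxdc2, a membrane protein of the plexin domain family, stood at 159.7, 131 and 159 CPM in the 3 control mice and 44.0, 56.5 and 33.8 CPM in the 3 stress mice (log2 fold change -1.84, SE 0.19, edgeR adjusted p = 0.00203). Ctla4, an immune checkpoint receptor best known from T cells, was measured in these tumor cells at 110.3, 85.8 and 99.0 CPM in the 3 control mice and 32.2, 34.0 and 23.0 CPM in the 3 stress mice (log2 fold change -1.82, SE 0.18, edgeR adjusted p = 0.00171), while the whole lymphocyte list came to 0.927 to 13.2 CPM. Fos is described above. The noncoding Gm46563, the membrane channel gene Tmem63c and Xkr4 fell by 1.89, 1.84 and 2.0 (adjusted p = 0.00138, 0.00203 and 0.0141). Macc1, a regulator of the Met receptor gene, and Rps18-ps4, a copy of a ribosomal protein gene with uncertain counts, fell by 2.0 and 1.92 on 5 to 47 UMIs per mouse (adjusted p = 0.0193 and 0.0260). Without control mouse 1 the adjusted p of Xkr4, Macc1 and Rps18-ps4 was 0.0688, 0.0742 and 0.122. Macc1 and Rps18-ps4 also missed the threshold without control mouse 3 and without each stress mouse, and Xkr4 without stress mouse 1 or 3. All 10 fell in the other tumor cells too, by 1.08 to 2.28, and the test of the difference was passed by Fos alone.

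The 10 with the largest rise, chosen in the same way, all rested on few UMIs, at most 68 in a mouse, and their log2 fold changes of 2.89 to 3.94 depend on counts near 0 in the control mice. Tfcp2l1, a transcription factor of stem and epithelial cells, gave 0, 2 and 0 UMIs in the control mice and 13, 8 and 11 in the stress mice (log2 fold change 3.94, SE 0.80, edgeR adjusted p = 0.0346). S100a2, a calcium-binding protein of epithelia, gave 5, 3 and 3 UMIs against 19, 20 and 44 (log2 fold change 3.04, SE 0.43, edgeR adjusted p = 0.00997). Muc21, a membrane mucin, gave 5, 0 and 3 UMIs against 11, 22 and 50 (log2 fold change 3.49, SE 0.72, edgeR adjusted p = 0.0352). Popdc3, a membrane protein of muscle, gave 7, 9 and 1 UMIs against 35, 17 and 68 (log2 fold change 2.89, SE 0.57, edgeR adjusted p = 0.0310). The others were Gm10471, Gm42884, ENSMUSG00000121456, Fam163a, Tsks and Gm11280, at adjusted p of 0.00858 to 0.0408. Each of the 10 missed the threshold with at least 2 of the mice left out, control mouse 3 among them for 9, and the adjusted p then reached 0.0557 to 0.149.

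The stress effect in cluster 7 was set against that in the other tumor cells of the same mice in 1 model. Of 17200 genes, 6 (0.0349%) had effects that differed, all lower in cluster 7, and 0 were higher by edgeR's quasi-likelihood test, while 1468 had an unadjusted p under 0.05, 763 of them higher, and DESeq2 called 6 higher and 34 lower. The cells were assigned to clusters from the same expression values. The make-up of the other tumor cells also differed between the groups. Cluster 14, the cycling cluster rich in hosts, held 7.33%, 7.49% and 7.30% of the tumor cells in the 3 control mice. In the 3 stress mice it held 4.03%, 3.75% and 3.76%. Its part in the effects outside cluster 7 and in the differences was not tested. Fos fell in both populations and further in cluster 7. In the other tumor cells it stood at 1136, 818 and 1035 CPM in the control mice and 596, 342 and 606 CPM in the stress mice (log2 fold change -1.08, SE 0.25, adjusted p = 0.0243), and the difference of the effects was -0.96 (SE 0.10, adjusted p = 8.63e-04). No mouse left out ended that call. No listed host lncRNA passed the test of the difference, with a median difference of -0.18 over 19 tested against 0.02 over all genes, and no ribosomal protein gene did.

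**Figure D5:**
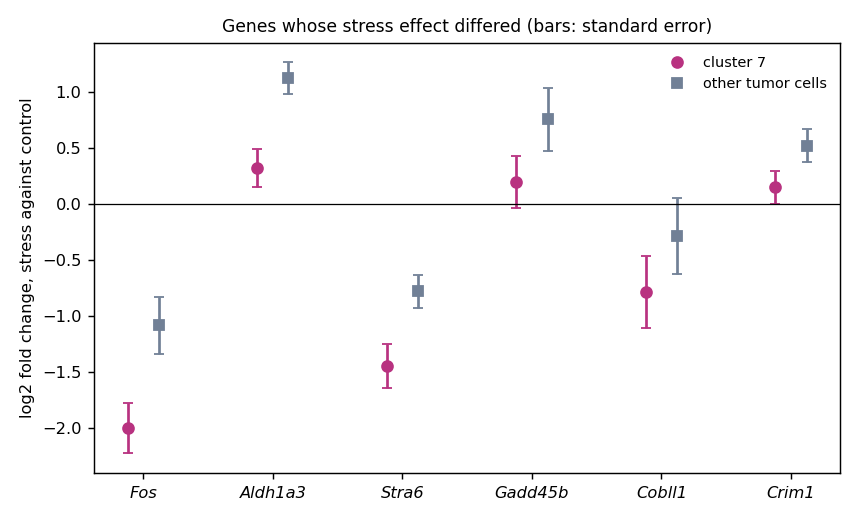
Log2 fold change of stress against control mice (vertical axis) for the 6 genes whose stress effect differed between cluster 7 (circles) and the other tumor cells (squares); bars are standard errors. In each gene the circle lies below the square.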

How the data were processed

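Tumor tissue of 3 control and 3 stress mice gave 1 library each. The authors aligned the reads to mm10 with Cell Ranger (9.0.0 for the control and 7.1.0 for the stress libraries), removed doublets with Scrublet and cells above 20% mitochondrial reads or under 200 genes, integrated the samples with Harmony and clustered them in Seurat. The values the authors deposited are whole-number UMI counts without normalization, beside a table with the cell type and cluster of 58794 of 61374 barcodes. Here the cell table chose the members, and counts were summed per mouse. Tests used edgeR 4.0.16 (quasi-likelihood, TMM, filterByExpr, Benjamini-Hochberg threshold 0.05) in R 4.3.3, and for the difference of effects a model with mouse, population and their interaction with stress. DESeq2 1.42.0, scanpy 1.11.5 for doublet calls and scipy 1.17.1 for the exact permutation test were also used. On simulated counts with a dispersion of 0.01 the test in cluster 7 recovered 34 of 50 genes changed 1.5-fold and 50 of 50 changed 2-fold. It gave 7 false calls among 12796 unchanged genes. Every simulated gene had this 1 dispersion, so these counts do not give the power for genes that vary more between mice. In the data Lsamp, with a log2 fold change of 1.11 and an SE of 0.39, did not pass. The test of differences recovered 7 of 50 at 1.5-fold, 33 of 49 at 2-fold and 27 of 49 at 0.5-fold. Its simulated profiles shared no effect of the mouse, unlike the data, so these counts do not give the power of that test. Host genes come from GENCODE M21 and start sites from RefSeq, both on GRCm38.

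Members, gene lists and tests were chosen with earlier results of these data known. Named genes were the 5 given marks, the 20 highest and 10 lowest by median log2 ratio at a mean of at least 20 CPM and with the same sign in all 6 mice, the 10 called genes without overlap that rose or fell most, up to 5 in each direction whose effect differed, 1 more that passed that test, and members of the lists. Where a clause names a gene outside this rule, it was chosen after its values were seen. Each library is 1 mouse. P-values measure the spread between these mice. Alternatives were other scaling, no filter, DESeq2, each mouse left out, the replicate number as a block, no called doublets, cells thinned to 2000 UMIs and equal cell numbers, and for marker ratios a pseudocount of 10 and equal weight to each other tumor cluster. Sequences of Epb41l4aos and Krt19 are not shown.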

Additional observations from a re-analysis of the deposited data

Results flagged for a closer look

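In 6 genes the effect of stress differed between cluster 7 and the other tumor cells by the interaction test, each lower in cluster 7. Without called doublets 3 of the 6 kept their call, and with equal numbers of cells per mouse 4 did. Fos had a difference of -0.96 (SE 0.10, edgeR adjusted p = 8.63e-04), with effects of -2.0 ± 0.22 (SE) in cluster 7 and -1.08 ± 0.25 in the other tumor cells, and it kept its call with each mouse left out. Aldh1a3, which makes retinoic acid, stood at 10.7, 9.0 and 8.94 CPM in the 3 control mice and 10.0, 15.7 and 12.9 CPM in the 3 stress mice in cluster 7. In the other tumor cells it stood at 11.9, 11.3 and 10.3 CPM in the control mice and 20.5, 28.2 and 32.3 CPM in the stress mice, where all stress mice lay far above all control mice, and the difference was -0.88 (SE 0.13, edgeR adjusted p = 0.0276). It was not called without control mouse 1, control mouse 3 or stress mouse 1 (adjusted p up to 0.177). Stra6, the receptor that takes up retinol, had effects of -1.44 ± 0.20 (SE) in cluster 7 and -0.78 ± 0.15 in the other tumor cells, a difference of -0.74 (SE 0.12, edgeR adjusted p = 0.0484). Stra6 was called with control mouse 2 left out and with no other single mouse left out (up to 0.212).

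Gadd45b, a DNA damage and stress response gene, had effects of 0.20 ± 0.23 (SE) in cluster 7 and 0.76 ± 0.28 in the other tumor cells and a difference of -0.62 (SE 0.10, edgeR adjusted p = 0.0484). It was not called without control mouse 1 or 3 or stress mouse 2 or 3 (up to 0.175). Cobll1, a protein with an actin-binding domain, had effects of -0.78 ± 0.32 (SE) in cluster 7 and -0.28 ± 0.34 in the other tumor cells, neither past the threshold alone, and a difference of -0.58 (SE 0.07, edgeR adjusted p = 0.00266), which was not called without control mouse 3 (0.0640). Crim1, a membrane protein that binds growth factors, had effects of 0.16 ± 0.15 (SE) in cluster 7 and 0.53 ± 0.15 in the other tumor cells and a difference of -0.44 (SE 0.07, edgeR adjusted p = 0.0325). It was not called without control mouse 1 or 3 or stress mouse 1 or 2 (up to 0.175). With every cell thinned to 2000 UMIs Fos alone of the 6 kept its call, in a test of fewer UMIs per mouse that called 1 gene higher and 15 lower. Why the others lost theirs was not tested. Over all alternatives the differences of Cobll1 and Aldh1a3 came as near to 0 as -0.40 and -0.60. The software version of the libraries cannot be told apart from the group, and its part in these differences was not tested. The share of cluster 14 among the tumor cells also differed between the groups, as given above. The part of that share in these differences was not tested either.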

How the results depend on the processing

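The count of changed genes in cluster 7, 458 as reported, was 1355 without a filter on low counts, 851 by DESeq2, 118 in cells thinned to 2000 UMIs and 67 to 1658 with 1 mouse left out. In the other tumor cells 3982 became 683 in thinned cells and 1234 to 5590 with 1 mouse left out. The 6 genes whose effects differed became 260 without a filter, 40 by DESeq2, 3 without called doublets, 16 in thinned cells and 1 to 87 with 1 mouse left out. Thinned cells hold fewer UMIs and left fewer genes to test, and the other causes were not tested. The share of tumor cells in cluster 7 differed by 0.491 percentage points, by -1.41 with all annotated cells as the denominator (exact permutation test, p = 0.4) and by -1.09 to 1.98 with 1 mouse left out, below 0 without stress mouse 3. No named stress effect or marker ratio changed sign under any alternative run. Of the named stress effects under the alternatives, 141 values lost a call, 13 gained one and 472 did neither. Of the marker ratios, 4 of 50 moved by more than 1 SD between mice: Gas5, Zfas1 and Snhg8 to 0.89, 0.53 and 0.41 with equal weight to each other tumor cluster, and Lsamp to 0.60 with a pseudocount of 10.

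Deviations of same-numbered control and stress mice from their groups gave mixed correlations in cluster 7, 0.351, 0.283 and -0.199 for numbers 1, 2 and 3. In the other tumor cells they were 0.492, 0.386 and -0.135. The labels do not say that equal numbers mark a pair, so the main fit held no block, and whether the mice were paired is not known. With the replicate block 801 genes were called in cluster 7, 5033 in the other tumor cells and 82 for the difference, and the share differed by the same 0.491 points. Depth limits the genes with the largest rise, which rest on at most 68 UMIs in a mouse.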
